A study of Mus musculus with 2 samples.

Results

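The mitotic entry, spindle and kinetochore genes are 60 genes, listed by symbol, whose products start mitosis, build the spindle, hold chromosomes to it and divide the cell. All 60 were found among the 16803 genes of the RNA sequencing table of NE4C cells. NE4C is an established line of mouse neural stem cells, so its cultures divide. RNA of 1 untreated culture (control) was compared with RNA of 1 culture given HTL, homocysteine thiolactone, a reactive cyclic form of homocysteine that attaches to lysine residues of proteins. Both conditions used the same cell line and carried no other allele or agent in the labels, which give neither dose nor time of the treatment. The study's general methods describe a period in low serum before HTL was added to cultures, and whether the sequenced cultures went through it is not stated. The study used the comparison to examine the expression of selected genes related to neural tube closure after HTL. The question addressed here is how the transcripts of the mitotic machinery differed between these libraries.

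Mitosis begins when the kinase Cdk1, bound to cyclin A or B, escapes inhibition by Wee1 through the Cdc25 phosphatases. Aurora and Polo kinases then mature the centrosomes and the spindle, kinetochores assemble on centromeres and capture microtubules, and the spindle checkpoint holds back the anaphase-promoting complex until every chromosome is attached. Many genes of this programme are transcribed in G2 and M phase through promoters that carry CHR and CCAAT elements, so in bulk RNA their level depends both on transcription and on the share of cells in those phases. These cannot be told apart in a bulk sample, and neither can fewer cells of a phase and less RNA per cell.

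The control library held 10350665 estimated reads, rounded per gene, and the HTL treatment library 9102076. With 1 library a condition, none of the differences has a replicate check. Tests and 95% intervals (exact Clopper-Pearson) compare the reads of these 2 libraries, not the conditions, and cover counting error only. Of the markers of a neural stem cell, Nes, Vim and Sox2 were present in both libraries, while Fabp7 had 2 reads in each. The 7 stem cell markers together took 533 CPM (reads scaled to the library total) in the control and 383 CPM after HTL, with Vim (log2 ratio of -1.01) and Sox2 (-1.46) called lower. None of the others was called: Nes (-0.059) and Cdh2 (-0.37) lay below 0, and Msi1 (0.033), Pax6 (0.12) and Fabp7 (0.15) above it. The 5 neuron markers took 54.8 and 59.8 CPM, with Dcx called lower (88 control and 29 HTL reads, for a log2 ratio of -1.40) and Tubb3, the most abundant, above 0 and not called (296 control and 396 HTL reads, for a log2 ratio of 0.60). Astrocyte markers took 2.22 and 6.15 CPM (2 genes analysed of 4), with Aldh1l1 called higher (21 control and 56 HTL reads, for a log2 ratio of 1.58), fibroblast markers 3.86 and 6.92 (3 of 4), and the microglial gene Aif1 0.290 and 0. The part of these markers in the results was not tested.

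The mitotic genes were lower after HTL more often than higher, and the falls past the cutoffs were mostly in genes of the centromere and kinetochore. Each of the 60 genes had enough reads to be tested (at least 10 in both libraries together). A gene was called when its adjusted p was at most 0.001 and its log2 ratio of scaled reads, HTL treatment over control, was at least 1 in size. None of the 60 genes was called higher, and 7 were called lower, namely Ttk, Cenpf, Cenph, Cenpi, Cenpk, Knstrn and Kif20b. Over all 13442 genes tested, 7.98% were called lower and 2.81% higher, so 7 of 60 lay near the background. Among the 8528 genes averaging at least 100 reads, a depth which all but 1 of the 60 genes reached, the shares were 7.26% and 2.60%. By the adjusted p alone, 32 of the 60 genes were lower, 4 were higher (Aurka, Bub3, Tpx2 and Plk1) and 24 did not pass. Deeply sequenced genes pass this criterion at small ratios. Of all genes tested, 24.1% were lower and 14.5% higher by it, and of the genes averaging at least 100 reads, 32.1% and 20.8%. With scaling by edgeR's TMM, 28 of the 60 genes were lower and 11 higher by the adjusted p alone, against 18.5% and 20.1% of all genes tested. Cdk1, Cdc25a, Bub1b and Fzr1 were then no longer lower, and Ccnb1, Ccnb2, Incenp, Cdca8, Pttg1, Cenpa and Racgap1 passed as higher.

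The median log2 ratio of the 60 genes was -0.30, with a range from -1.98 for Cenpi to 0.50 for Aurka. The median of all genes tested was -0.14, and other scalings moved that median to values between -0.044 and -0.00080. The distance between both medians was -0.17 under library totals and under each other scaling. Such scalings shift all log2 ratios by nearly the same amount, so they could not have changed this distance. A total of 45 of the 60 genes (75%) lay below 0, against 58.7% of all genes tested. Summed, the 60 genes held 120309 reads of the control library (1.16%) and 85339 of the library of HTL treatment (0.938%), a log2 ratio of -0.31 (-0.32 to -0.30). Without Top2a, the gene with the most reads, the log2 ratio of the sum was -0.29.

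**Figure D1:**
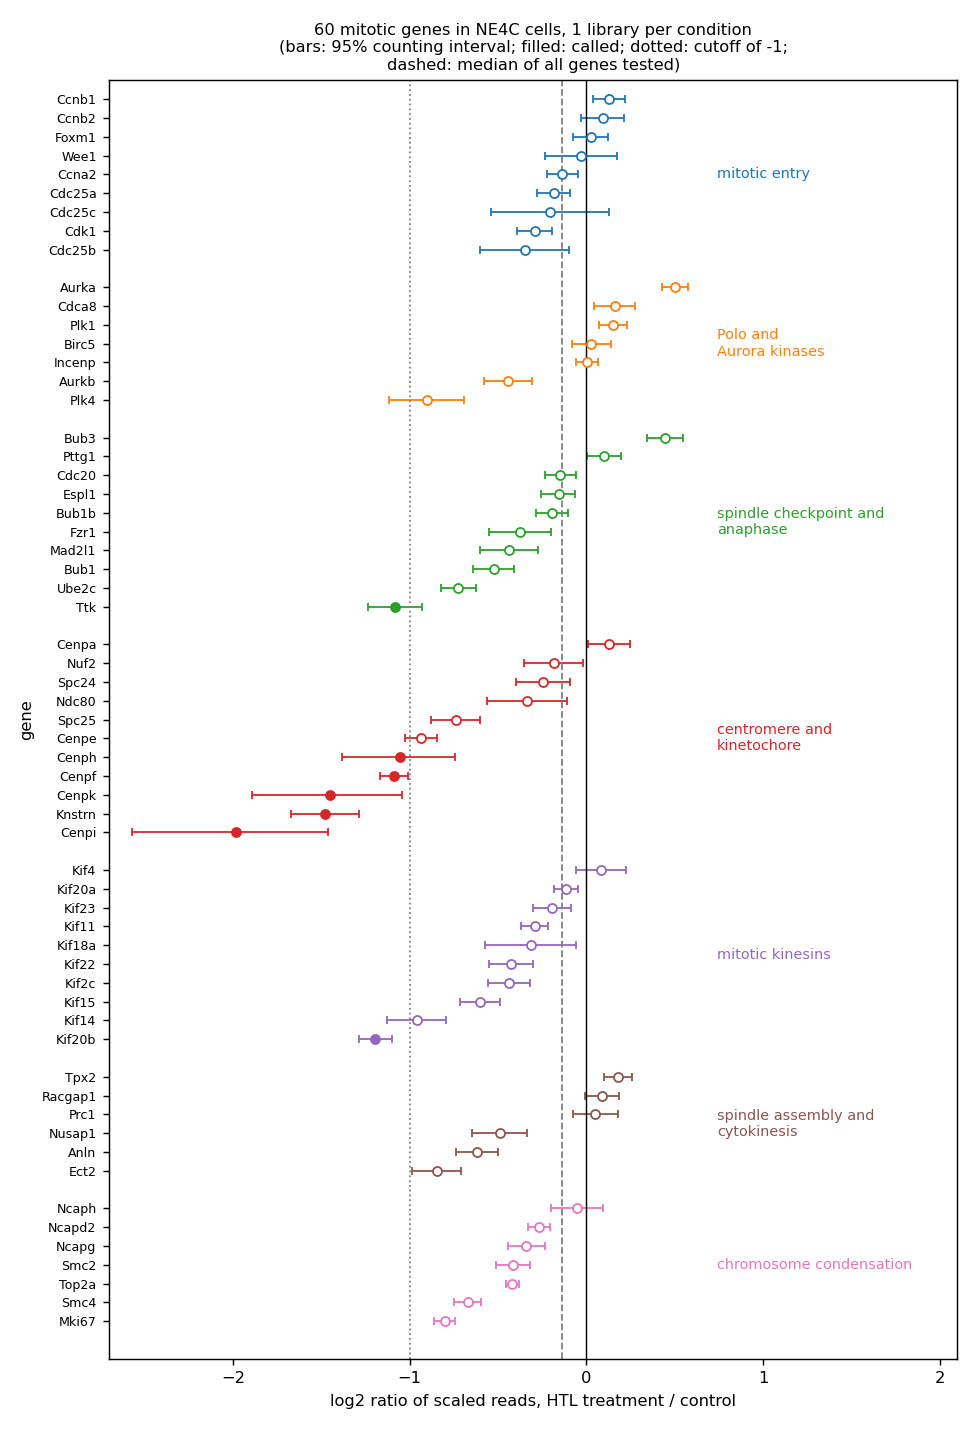
Log2 ratio of scaled reads, HTL treatment over control (x axis), of the 60 mitotic genes (y axis), grouped by role and sorted within each group; points are single-library ratios, bars the 95% counting interval, and filled points called genes. The 7 filled points all lie left of -1, and 5 of them are in the centromere and kinetochore group, which spans -1.98 to 0.13.

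Promoters of these genes shared the elements known from cell cycle genes. RefSeq promoter windows of 300 bases (250 before and 50 after an annotated start, build GRCm38.p6) were at hand for 50 of the 60 genes. A CHR, written TTTGAA or TTCGAA and searched on both strands (TTTGAA then reads TTCAAA), was found for 34 of the 50 genes (68%). The share was 16.2% of the 10615 tested genes with a window, and 19.2% of all 32851 windows. CCAAT, which reads ATTGG on the other strand, was found for 36 of 50 (72%), against 43.7% of the tested genes and 37.4% of all windows. Both elements were found for 29 of 50 (58%), against 6.90% of the tested genes. The E2F forms TTTGGCGC, TTTCCCGC, TTTCGCGC and TTTGCCGC were found for 6 of 50 (12%), among them Cdk1, Cdc25a, Ncapd2 and Ncapg, against 4.73% of the tested genes and 2.26% of all windows. The other mitotic genes, those of the further lists for the pathway, had a CHR in 42 of 86 cases (48.8%), CCAAT in 50 (58.1%) and both in 28 (32.6%). S-phase genes had CCAAT in 14 of 23 cases (60.9%), E2F forms in 9 (39.1%) and a CHR in 4 (17.4%). Of the CHR matches of the mitotic genes, 36 of 51 (70.6%) were within 100 bases before to 50 after the start, against 41.4% of those over all windows. Matches were counted per window, so a site in overlapping windows of 1 gene (Ect2, Prc1 and Bub3) counts more than once.

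**Figure D2:**
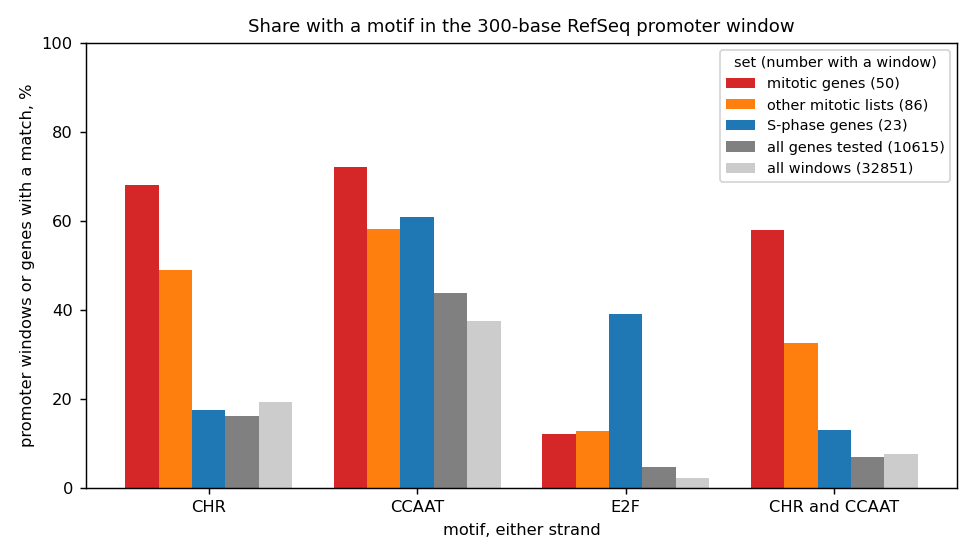
Share (y axis, %) with a match to CHR, CCAAT, E2F forms, or CHR and CCAAT together (x axis) in the 300-base window, for the mitotic genes, the other mitotic lists, S-phase genes, all genes tested and all windows. The bars of the mitotic genes reach 68% for CHR and 58% for both elements, against 16.2% and 6.90% of all genes tested.

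The stretches below run from 90 bases before to 20 after the start of transcription and are given 5′ to 3′ on the strand of the gene, with CHR and CCAAT matches on either strand in capitals. The first 5 come from named genes with a CHR in the stretch. In each role group with such genes the one with the lowest log2 ratio was taken, so all 5 were chosen on their values. The Polo and Aurora kinases and the spindle assembly and cytokinesis group gave none. The 5 are Cdc25b (chr2:131186858-131186967, plus strand), Ttk (chr9:83834599-83834708, plus), Cenpf (chr1:189688067-189688176, minus), Kif20b (chr19:34922268-34922377, plus) and Top2a (chr11:99024170-99024279, minus). Cenpi (chrX:134307994-134308103, plus), chosen after its values were seen because its log2 ratio was the lowest, has CCAAT and no CHR in this window.
Cdc25b: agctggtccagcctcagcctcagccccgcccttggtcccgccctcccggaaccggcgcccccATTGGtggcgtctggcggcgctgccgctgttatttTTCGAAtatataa
Ttk: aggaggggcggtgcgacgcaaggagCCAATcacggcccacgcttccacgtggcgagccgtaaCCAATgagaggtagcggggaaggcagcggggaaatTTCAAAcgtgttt
Cenpf: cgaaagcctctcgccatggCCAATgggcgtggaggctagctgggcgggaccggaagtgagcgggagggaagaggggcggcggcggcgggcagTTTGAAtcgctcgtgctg
Kif20b: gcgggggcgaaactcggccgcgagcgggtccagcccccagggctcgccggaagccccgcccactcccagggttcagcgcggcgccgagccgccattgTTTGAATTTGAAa
Top2a: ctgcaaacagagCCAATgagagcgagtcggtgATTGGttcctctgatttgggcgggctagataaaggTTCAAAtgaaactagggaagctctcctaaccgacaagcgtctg
Cenpi: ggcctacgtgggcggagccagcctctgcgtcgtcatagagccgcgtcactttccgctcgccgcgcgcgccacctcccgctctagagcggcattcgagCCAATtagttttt

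The median log2 ratio was -0.34 (range -1.19 to 0.50) for the 34 genes with a CHR and -0.40 (-1.98 to 0.13) for the 16 without. Among the 7 called genes, Ttk, Cenpf and Kif20b had a CHR in the window, while Cenph, Cenpi, Cenpk and Knstrn had none. Aurka and Bub3, at the other end of the range, also had both CHR and CCAAT. A match is a description of the letters and not a bound site.

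Genes of mitotic entry differed little between the libraries. None of the 9 genes was called, 2 were lower by the adjusted p alone (Cdk1 and Cdc25a), and the group's median log2 ratio was -0.14, which is the median of all genes. Cdk1, the kinase that drives entry (gene ID 12534, in build NCBIM37 on the minus strand of chromosome 10 at 68799383 to 68815686), had 2018 reads in the control (control reads) and 1449 after HTL treatment (HTL reads), or 67.9 and 55.3 FPKM (reads scaled to transcript length and library size). Its log2 ratio was -0.29 (-0.39 to -0.19; exact binomial test, adjusted p = 1.59e-08), and -0.16 under TMM and under median of ratios scaling, where it did not pass (adjusted p = 0.00264 and 0.00386, exact test). Its partner cyclin B1, Ccnb1, had 2089 control and 2009 HTL reads, which after scaling is a log2 ratio of 0.13 (0.040 to 0.22) that did not pass (adjusted p = 0.00933, same exact test), but passed as higher under TMM (0.26), upper quartile (0.22) and median of ratios scaling (0.27). The counting interval of Ccnb1 lay above 0 and that of Cdk1 below it. Cyclin A2 (Ccna2) had 2404 control and 1923 HTL reads and cyclin B2 (Ccnb2) 1149 control and 1077 HTL reads, log2 ratios of -0.14 and 0.092. Of the Cdc25 phosphatases, which remove the phosphates that Wee1 places on Cdk1, Cdc25a had 2120 control and 1639 HTL reads and gave a log2 ratio of -0.19 (-0.28 to -0.092). Cdc25b, the group's lowest ratio, had 326 control and 225 HTL reads, for a log2 ratio of -0.35 (-0.60 to -0.10), and Cdc25c 177 control and 135 HTL reads, for a ratio of -0.20 (-0.54 to 0.13). Neither Cdc25b nor Cdc25c passed, and both had far fewer reads than Cdc25a. Wee1 had 434 control and 374 HTL reads, for a log2 ratio of -0.029 that turned above 0 under the other scalings. Foxm1, a transcription factor of late cell cycle genes, had 1782 control and 1594 HTL reads, for a log2 ratio of 0.025 (-0.074 to 0.12). It shares exon positions with 4933413G19Rik on the same strand, as Cdc25b does with Spef1 and Ccna2 with Exosc9 on the opposite strand, and the use of strand in counting is not stated.

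The Polo and Aurora kinases did not move together. Of 7 genes, 2 were higher by the adjusted p alone (Aurka and Plk1), 2 were lower (Plk4 and Aurkb), and none was called. Of all genes tested, 14.5% were higher and 24.1% lower by this criterion. Aurka, which acts at centrosomes and on spindle microtubules (gene ID 20878, on the minus strand of chromosome 2 at 172181690 to 172196035), had 2581 control and 3211 HTL reads, 131 and 185 FPKM. It had the highest ratio of the 60 genes, a log2 ratio of 0.50 (0.43 to 0.58) or 1.41-fold, with an adjusted p of 2.46e-38 in the exact binomial test. Plk1, a kinase of mitotic entry and kinetochore attachment, had 2497 control and 2439 HTL reads, for a log2 ratio of 0.15 (0.070 to 0.23). Plk4, which starts centriole duplication, was the lowest of the group, with 579 control and 272 HTL reads or 15.6 and 8.30 FPKM. Its log2 ratio was -0.90 (-1.12 to -0.69), a 1.87-fold lower level that stayed short of the cutoff of 1. The chromosomal passenger complex, which corrects wrong attachments, showed the kinase apart from its partners. Aurkb, its kinase, had 1152 control and 745 HTL reads and gave a log2 ratio of -0.44 (-0.58 to -0.31). Its scaffold Incenp had 4596 control and 4055 HTL reads, for a log2 ratio of 0.0048 (-0.056 to 0.066). Survivin (Birc5) had 1409 control and 1263 HTL reads and borealin (Cdca8) 1188 and 1167, log2 ratios of 0.028 and 0.16, neither of which passed. The intervals of these partners did not overlap that of Aurkb.

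Among genes of the spindle checkpoint and of anaphase, 6 of 10 were lower by the adjusted p alone, 1 was higher and 1, Ttk, was called. By the adjusted p alone, 24.1% of all genes tested and 32.1% of those averaging at least 100 reads were lower. The median log2 ratio of the group was -0.29. Ttk, the checkpoint kinase also known as Mps1 (gene ID 22137, on the plus strand of chromosome 9 at 83728296 to 83765997), had 1201 control and 499 HTL reads, 39.8 and 18.8 FPKM. It fell by 1.08 on the log2 scale (-1.24 to -0.93), 2.12-fold, with an adjusted p of 2.69e-47 in the exact binomial test, and its interval reaches past the cutoff. Ttk was no longer called under TMM, upper quartile or median of ratios scaling, or relative to genes of like length or GC content (the median of the same of 10 equal bins taken off). The other checkpoint genes spread from below to above 0. Bub1, a kinetochore kinase, had 1671 control and 1021 HTL reads, for a log2 ratio of -0.53 (-0.64 to -0.41). Mad2l1, the Cdc20 inhibitor, had 769 control and 500 HTL reads, for a log2 ratio of -0.44 that turned to 0.0085 relative to genes of like GC content. Bub1b, its partner in the mitotic checkpoint complex, had 2301 control and 1766 HTL reads, for a log2 ratio of -0.20. Bub3, which recruits Bub1 and Bub1b to kinetochores (gene ID 12237, on the plus strand of chromosome 7 at 138703905 to 138715412), had 1493 control and 1786 HTL reads, 68.9 and 93.4 FPKM. Its log2 ratio was 0.44 (0.34 to 0.54), higher in the HTL treatment library, with an adjusted p of 1.43e-17 in the exact test. Bub3 thus lay above 0 and its 2 binding partners below.

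Of the genes that carry the cell into anaphase, Ube2c was the most different. This enzyme, which hands ubiquitin to the anaphase-promoting complex, had 2365 control and 1258 HTL reads, or 251 and 151 FPKM, a log2 ratio of -0.73 (-0.83 to -0.63). Cdc20, the mitotic activator of the complex, had 2392 control and 1898 HTL reads, for a log2 ratio of -0.15 (-0.24 to -0.061; adjusted p = 0.00208, exact test) that did not pass. Fzr1, the activator that follows it, had 656 control and 445 HTL reads, for a log2 ratio of -0.37 (-0.55 to -0.20). Securin (Pttg1) had 1856 control and 1749 HTL reads and separase (Espl1), the protease it inhibits, 1989 and 1568, with log2 ratios of 0.10 and -0.16 that did not pass. Cdc20, Fzr1 and Ube2c share exon positions on the opposite strand with Elovl1, F630110N24Rik and Tnnc2.

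The centromere and kinetochore group held 5 of the 7 calls, while 7.98% of all genes tested were called lower. Under the other 3 scalings, Cenpi, Cenpk and Knstrn of this group remained called. Of its 11 genes, 7 were lower by the adjusted p alone and none was higher, against 24.1% and 14.5% of all genes tested. Among genes averaging at least 100 reads these shares were 32.1% and 20.8%. The median log2 ratio of the group was -0.93. Summed, the group had 13238 control and 6911 HTL reads, which is a log2 ratio of -0.75 (-0.79 to -0.71). Its median was the lowest of the role groups and lay between -0.84 and -0.80 under the other scalings. These shift all groups by nearly the same amount, so they could not have changed the order of the groups. Relative to genes in the same of 10 equal bins of GC content it was -0.64.

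Cenph, Cenpi and Cenpk code for proteins that sit together in the constitutive centromere network, the layer between centromeric chromatin and the microtubule-binding kinetochore, and all of them fell. Cenpi (gene ID 102920, on the plus strand of chromosome X at 130842623 to 130897178) had 159 control and 35 HTL reads, 4.16 and 1.03 FPKM. This was the lowest level and the lowest ratio of the 60 genes, with a log2 ratio of -1.98 (-2.57 to -1.46), 3.96-fold lower, and an adjusted p of 4.76e-16 in the exact binomial test. Cenpk (gene ID 60411, on the plus strand of chromosome 13 at 105019035 to 105041728) had 197 control and 63 HTL reads, 15.2 and 5.59 FPKM, and fell by 1.45 on the log2 scale (-1.89 to -1.04). Cenph (gene ID 26886, on the minus strand of chromosome 13 at 101529629 to 101545854) had 275 control and 116 HTL reads, 21.7 and 10.4 FPKM, and fell by 1.06 (-1.39 to -0.74). Its interval reaches past the cutoff, and it was not called under the other 3 scalings, relative to genes of like GC content, or as a log2 ratio of FPKM + 1 (-0.996). Cenph lies next to Ccnb1 (101548605 to 101556525, same strand), whose log2 ratio was 0.13. These 3 genes have few reads compared with the rest of the list, so their intervals are among the widest.

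The other genes of the constitutive network were not called. Of 11 such genes outside the 60, Cenpl was higher by the adjusted p alone (99 control and 158 HTL reads, for a log2 ratio of 0.86) and Cenpc1, the scaffold of the layer, lower (860 control and 381 HTL reads, -0.99). Cenpm, whose product joins those of Cenph, Cenpi and Cenpk in their subcomplex, had 256 control and 182 HTL reads, for a log2 ratio of -0.31 (-0.59 to -0.027) that did not pass. The median of the 11 genes was -0.28. Cenpa, the centromeric histone variant on which the network is built, had 1219 control and 1172 HTL reads and gave a log2 ratio of 0.13 (0.012 to 0.25; adjusted p = 0.0527, exact test). It passed as higher under TMM (0.26), upper quartile (0.22) and median of ratios scaling (0.27).

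Among the outer kinetochore genes of the 60, Knstrn, Cenpf and Cenpe had the lowest ratios. Knstrn, which codes for an adaptor between kinetochore and spindle (gene ID 51944, on the plus strand of chromosome 2 at 118639739 to 118663432), had 938 control and 296 HTL reads, 28.9 and 10.4 FPKM. It fell by 1.48 on the log2 scale (-1.67 to -1.29), 2.78-fold, with an adjusted p of 9.31e-60 in the exact test. It shares exon positions with Gm14090 on the same strand and Gm14091 on the opposite strand, so its reads are uncertain. Cenpf, a long coiled-coil protein of the outer kinetochore (gene ID 108000, on the minus strand of chromosome 1 at 191464478 to 191511965), had 4306 control and 1779 HTL reads, 36.9 and 17.3 FPKM. It fell by 1.09 (-1.17 to -1.01), 2.13-fold, and was not called under the other 3 scalings or relative to genes of like length or GC content. Cenpe, a kinesin motor that carries chromosomes to the spindle equator, had 3020 control and 1389 HTL reads and gave a log2 ratio of -0.93 (-1.03 to -0.84), just short of the cutoff.

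The 4 genes of the Ndc80 complex, which grips microtubules, differed among themselves. Spc25 had 1210 control and 637 HTL reads, for a log2 ratio of -0.74 (-0.88 to -0.60), while its partner Spc24 had 842 control and 625 HTL reads, for a ratio of -0.24 (-0.40 to -0.093). Ndc80 had 400 control and 279 HTL reads and Nuf2 672 and 520, log2 ratios of -0.33 (-0.56 to -0.11) and -0.18 (-0.35 to -0.017). Of these only Spc25 passed the adjusted p, and its interval did not overlap those of the other 3.

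Mitotic kinesins were lower in 6 of 10 cases by the adjusted p alone, against 24.1% of all genes tested and 32.1% of those averaging at least 100 reads. Their median log2 ratio was -0.37. Relative to genes of like GC content it was -0.17, with 7 of the 10 below 0. The called kinesin was Kif20b, a motor of late cytokinesis (gene ID 240641, on the plus strand of chromosome 19 at 34996848 to 35050221), which had 3289 control and 1264 HTL reads, 56.5 and 24.6 FPKM. It fell by 1.19 on the log2 scale (-1.29 to -1.10), 2.29-fold, with an adjusted p of 3.12e-150 in the exact binomial test. Kif20b was no longer called relative to genes of like length (-0.91) or GC content (-0.75). Kif14, which also acts in cytokinesis, had 938 control and 424 HTL reads, for a log2 ratio of -0.96 (-1.13 to -0.79), and Kif15, a motor that helps keep the spindle bipolar, 1679 control and 973 HTL reads, for a ratio of -0.60. Kif11, the main motor of spindle bipolarity, had 3365 control and 2416 HTL reads and gave a log2 ratio of -0.29 (-0.37 to -0.22). The central spindle motors Kif20a (3819 control and 3097 HTL reads) and Kif23 (1616 control and 1243 HTL reads) had log2 ratios of -0.12 and -0.19, neither past the adjusted p, and Kif20a turned above 0 under TMM and median of ratios scaling. Kif20a and Kif20b, named as relatives, were thus apart by more than their counting intervals. The chromokinesin Kif22 had 1365 control and 893 HTL reads, for a log2 ratio of -0.43. The other chromokinesin, Kif4, had 845 control and 786 HTL reads, for a ratio of 0.081 (-0.061 to 0.22) and the highest of the group. Kif2c, a microtubule depolymerase, had 1505 control and 978 HTL reads, for a log2 ratio of -0.44, and -0.38 when summed with Gm4961, which has the same best protein match. Kif18a, which dampens chromosome movements, had 300 control and 212 HTL reads, for a log2 ratio of -0.31 (-0.58 to -0.057) that did not pass.

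Genes of spindle assembly and cytokinesis fell into both directions. Tpx2, which activates Aurka on the spindle, had 2614 control and 2602 HTL reads, 59.3 and 66.8 FPKM, with a log2 ratio of 0.18 (0.10 to 0.26; exact test, adjusted p = 2.54e-05). Aurka and its activator were thus both higher in the HTL treatment library. Prc1, which bundles the central spindle, and Racgap1, a subunit of centralspindlin, had log2 ratios of 0.051 and 0.090 and did not pass. Ect2, the exchange factor that Racgap1 recruits to turn on RhoA, had 1295 control and 633 HTL reads, for a log2 ratio of -0.85 (-0.99 to -0.71), the lowest of the group, or -0.40 relative to genes of like GC content. Anillin (Anln), a scaffold of the contractile ring, had 1601 control and 918 HTL reads, for a ratio of -0.62, and the microtubule bundler Nusap1 882 control and 552 HTL reads, for a ratio of -0.49. Among 6 genes, 3 were lower and 1 higher by the adjusted p alone (all genes tested 24.1% and 14.5%), and none was called.

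All 7 genes of chromosome condensation had log2 ratios below 0, and 6 were lower by the adjusted p alone. Of all genes tested, 58.7% were below 0 and 24.1% lower by the adjusted p alone (32.1% of those averaging at least 100 reads). Ncaph turned above 0 under each other scaling, and relative to genes of like GC content 4 of the 7 were below 0, with Smc2 (0.029), Ncapg (0.10) and Ncaph (0.073) above it. Top2a, the topoisomerase that untangles sister chromatids (gene ID 21973, on the minus strand of chromosome 11 at 98854257 to 98885503), had 15531 control and 10211 HTL reads, 285 and 212 FPKM. It had the highest control level of the 60 genes per length, and its log2 ratio was -0.42 (-0.46 to -0.38), or -0.14 relative to genes of like length and -0.13 to genes of like GC content. Mki67, the Ki-67 protein that coats mitotic chromosomes and is widely used as a proliferation marker, had 6886 control and 3475 HTL reads, 65.0 and 37.2 FPKM. Its log2 ratio of -0.80 (-0.86 to -0.74) was the lowest of the group and short of the cutoff, and was -0.42 relative to genes of like length. The core condensin ATPases Smc2 (2239 control and 1477 HTL reads) and Smc4 (3906 control and 2159 HTL reads) had log2 ratios of -0.41 and -0.67. The condensin I subunits Ncapd2, Ncapg and Ncaph had log2 ratios of -0.27, -0.34 and -0.053, with 819 control and 694 HTL reads for Ncaph, which did not pass. The interval of Smc4 (-0.75 to -0.59) lay below those of the other 4 condensin genes. Relative to genes of like GC content Smc4 was at -0.23 and no longer the lowest of these, with Ncapd2 at -0.27.

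**Figure D3:**
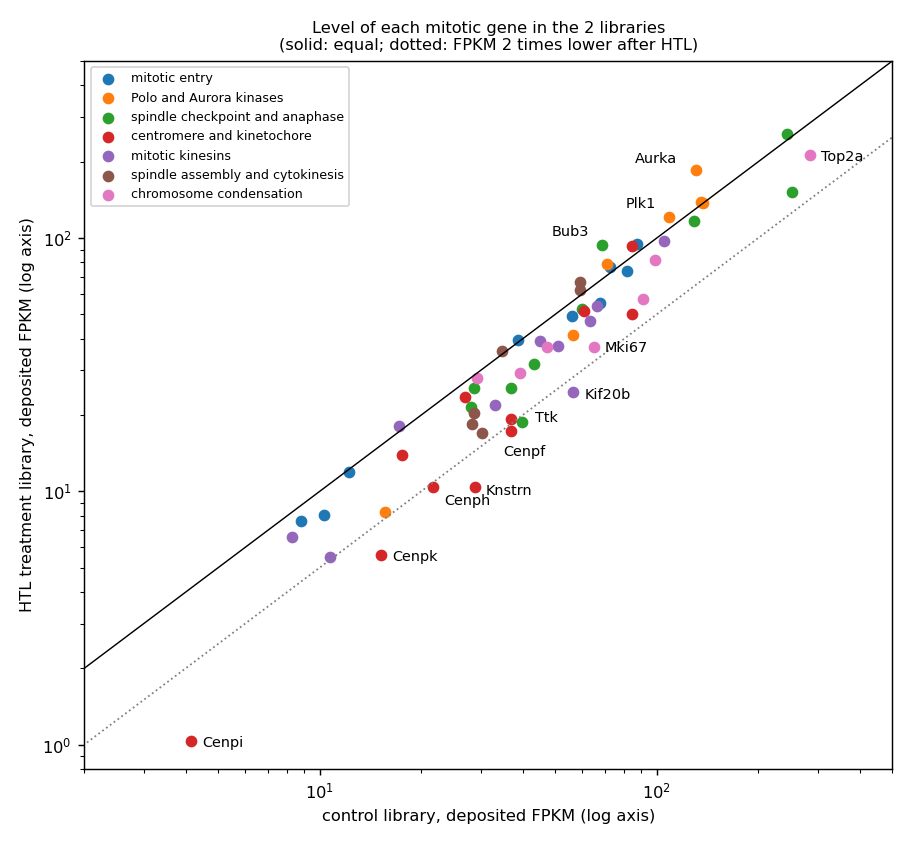
Deposited FPKM of each of the 60 genes in the control library (x axis, log scale) and the HTL treatment library (y axis, log scale), coloured by role; the solid line marks equal levels and the dotted line a level 2 times lower. Aurka and Bub3 are among the points above the solid line, and Cenpi, at 4.16 and 1.03 FPKM, stands at the lower left.

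The other genes of the pathway were taken from 6 further lists of 132 genes, of which 7 were called lower and none higher (all genes tested 7.98% and 2.81%). Under TMM and under median of ratios scaling, 6 were called lower and 1 higher. By the adjusted p alone, 49 of these were lower and 20 higher, and their median log2 ratio was -0.16. By the same criterion 24.1% of all genes tested were lower and 14.5% higher, and 32.1% and 20.8% of the genes averaging at least 100 reads. Of 31 other kinetochore genes 4 were called, of which 3 are described. Knl1, the platform on which Bub1 and Bub3 dock, had 894 control and 343 HTL reads, for a log2 ratio of -1.20 (-1.38 to -1.02), and was no longer called relative to genes of like length (-0.82) or GC content (-0.75). Oip5, a factor that prepares centromeres for new Cenpa, had 116 control and 32 HTL reads, for a log2 ratio of -1.66 (-2.29 to -1.10). Oip5 shares exon positions with Nusap1 on the opposite strand. Ska2, of the complex that strengthens attachments, had 574 control and 240 HTL reads, for a log2 ratio of -1.07. Ska2 was no longer called under TMM (-0.94), upper quartile (-0.98) or median of ratios scaling (-0.93), or relative to genes of like GC content (-0.63). The median of these 31 genes was -0.15, near that of all genes.

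Of 25 other spindle and centrosome genes, Sass6, which codes for the centriole's cartwheel protein, was called (449 control and 134 HTL reads, for a log2 ratio of -1.56), and 14 were lower and 4 higher by the adjusted p alone (all genes tested 24.1% and 14.5%). None of the 19 other mitotic entry genes and none of the 15 subunits and partners of the anaphase-promoting complex was called, and their medians were -0.11 and -0.16. Cks1b, a small Cdk-binding protein, had the highest ratio of the former, with 1290 control and 1772 HTL reads and a log2 ratio of 0.64 (0.54 to 0.75). Of 14 cohesin and other condensin genes 10 were lower by the adjusted p alone (24.1% of all genes tested, 32.1% of those averaging at least 100 reads). Nipbl, the cohesin loader, was called (3167 control and 1226 HTL reads, for a log2 ratio of -1.18), though no longer relative to genes of like length (-0.81) or GC content (-0.89). Cdca5, known as sororin, which holds cohesin on chromatin, had 876 control and 1429 HTL reads and gave a log2 ratio of 0.89 (0.77 to 1.01), the highest of these lists. It was the 1 gene called higher under TMM and under median of ratios scaling. S-phase genes had 7 lower and 7 higher by the adjusted p alone and a median of -0.056. Among them Cdc6, which loads the replicative helicase, had the highest log2 ratio at 0.84. Of the helicase genes Mcm3, Mcm4, Mcm5 and Mcm6 had log2 ratios of 0.32, 0.36, 0.26 and 0.21, Mcm2 had 0.086 and did not pass, and Mcm7 had -0.17 and was lower by the adjusted p alone. Rrm2 of ribonucleotide reductase had a log2 ratio of -0.54, and the transcription factor gene E2f1 was called with 293 control and 108 HTL reads, for a ratio of -1.25 (-1.59 to -0.93). Cks1b, Cdca5, Cdc6, the helicase genes and Rrm2 were chosen after their values were seen.

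**Figure D4:**
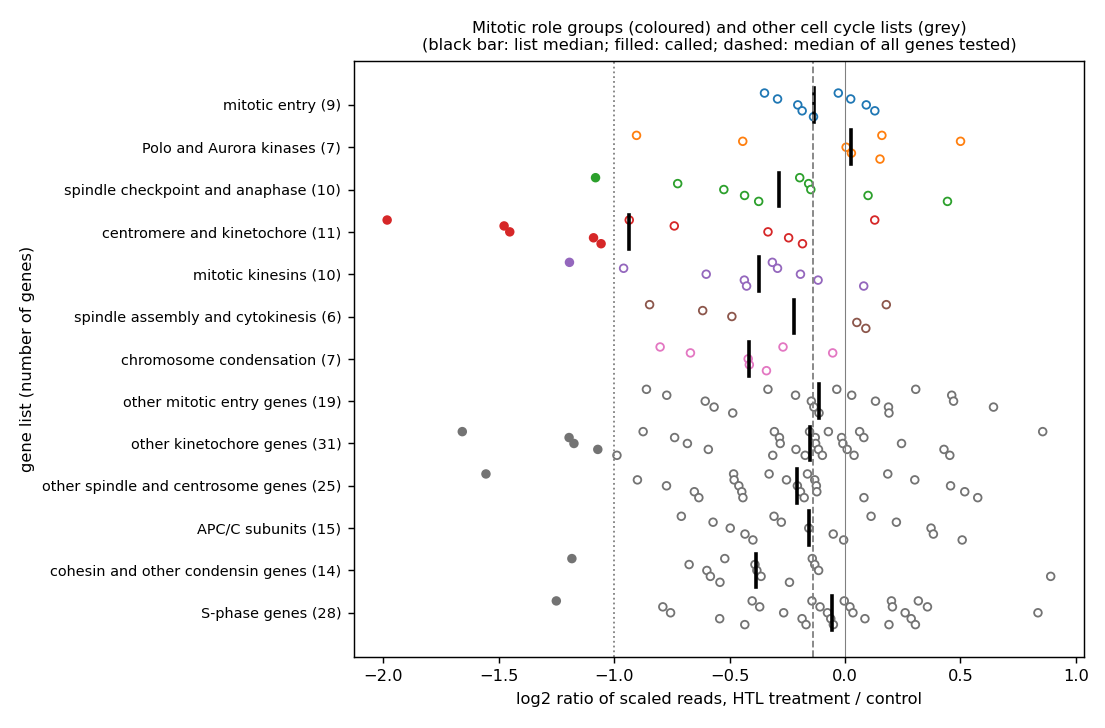
Log2 ratio of scaled reads (x axis) of each gene in the 7 mitotic role groups (coloured) and the 6 other cell cycle lists (grey; y axis, number of genes in brackets); black bars are medians and filled points called genes. The median of the centromere and kinetochore group lies at -0.93, and the medians of the other lists lie between -0.39 and -0.056.

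The ratios moved with the length and base composition of the transcripts. Across the 60 genes, which are no independent replicates and share both libraries, Spearman's rho of the log2 ratio was 0.50 with transcript GC content, -0.30 with transcript length and 0.41 with the control FPKM. Over all genes tested rho was 0.16 with GC content, -0.18 with length and 0.075 with the control FPKM. The 30 mitotic genes at or below their median GC content of 46.8% held 6 of the 7 calls and had a median log2 ratio of -0.56, while the 30 above it held the call of Knstrn and had a median of -0.13. All 4 genes that were higher by the adjusted p alone were in the latter set. Split by length at 3020 bases, the medians were -0.19 and -0.38. Among all genes averaging at least 100 reads, sorted into 10 equal bins, the bin of lowest GC content had a median of -0.38 and the bin of longest transcripts -0.38. Relative to the genes of the same GC bin, Cenpi, Cenpk and Knstrn remained called, and the median of the 60 genes was -0.10. With this centring 23 of the 60 genes lay above 0 in place of 15, and 8 turned from below to above it, namely Ccna2, Mad2l1, Nuf2, Kif20a, Kif18a, Smc2, Ncapg and Ncaph. The median of the spindle assembly and cytokinesis group turned from -0.22 to 0.058, while that of the centromere and kinetochore group was -0.64 in place of -0.93. For the checkpoint and anaphase, kinesin and condensation groups the medians were -0.13, -0.17 and -0.13. Several ratios shrank by more than 1.5 times, among them those of Bub1 (-0.081), Ndc80 (-0.042), Kif11 (-0.00057), Kif15 (-0.31), Nusap1 (-0.047), Anln (-0.32) and Smc4 (-0.23). Relative to genes of like length 6 of the 60 turned, with Ncaph, Wee1, Espl1 and Kif20a going above 0 and Birc5 and Pttg1 below it, and Cenpe (-0.56), Kif14 (-0.58) and Kif11 (-0.012) lay nearer to 0. Whether GC content or length plays a part in the lower levels was not tested.

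**Figure D5:**
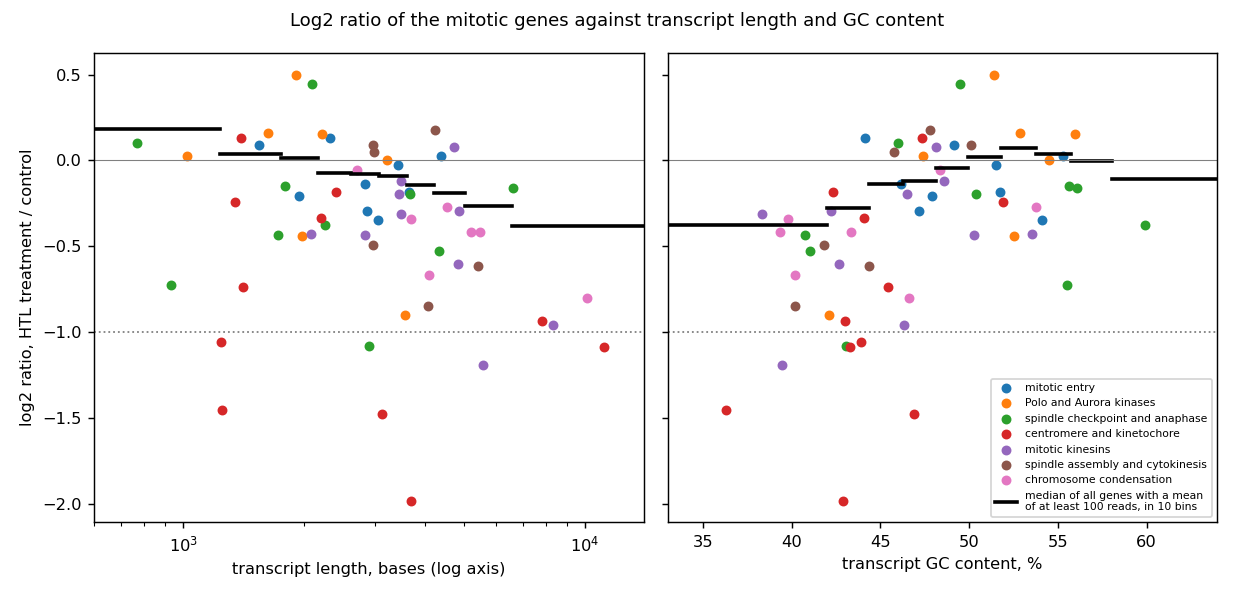
Log2 ratio (y axis) of the 60 genes against transcript length (left, bases, log scale) and transcript GC content (right, %), coloured by role, with black bars for the median of all genes averaging at least 100 reads in each bin. The black bars fall to -0.38 in the bin of longest transcripts and in the bin lowest in GC content, and Cenpi, Cenpk and Knstrn lie far below them.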

How the data were processed

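Total RNA of 1 control and 1 HTL treatment culture of NE4C cells was sequenced on a BGISEQ instrument. Groups came from the sample titles. Per the study's methods and the submitters' processing notes, clean reads were mapped by the authors to the mouse genome (mm9), who also deposited RSEM estimated counts and FPKM, the latter scaled to transcript length and library size. Mapper, RSEM version and use of strand are not given in the sources used here. The deposited log2 ratio, p-value and FDR columns hold the authors' own comparison and were not used.

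Estimated counts were rounded to whole reads. Those with 10 or more over both libraries (13442 genes; 3361 left out) entered the two-sided exact conditional binomial test against library totals (scipy 1.17.1), with Benjamini-Hochberg adjustment over all of them, and 0.5 read was added for log2 ratios. As reads carry no molecular identifiers and need not be independent molecules, the intervals cover counting error only. A fit with estimated dispersion was not possible with 1 library per condition. The members, the lists, their roles and the tests were chosen with earlier results of these data known. Named were all called members, the highest and lowest log2 ratio in each role group with a mean of at least 100 reads, the anchors Cdk1, Ccnb1, Plk1, Foxm1, Top2a, Mki67 and Cdc20, and called genes of the other lists, of which 1 is not reported here. The remaining members were given in addition, for completeness, and genes outside this rule are named as such or stand beside a complex described. Coordinates and exon overlaps came from the NCBIM37 annotation, promoter windows from RefSeq (GRCm38.p6).

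Alternatives were TMM and upper quartile (edgeR 4.0.16) and median of ratios scaling (DESeq2 1.42.0), other filters, 5 reads added, FPKM + 1, other cutoffs, centring on 10 bins of transcript length, and an assumed coefficient of variation in edgeR's exact test. Centring on bins of GC content was added after the data were seen. Scaling factors were first estimated on all listed genes and then, after those results had been seen, on the genes tested. Both versions are kept.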

Additional observations from a re-analysis of the deposited data

How the results depend on the processing

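No paired analysis was possible because there was 1 library per condition, which also means that none could be left out. Of the 60 genes, 7 were called with library totals and 4 under TMM, 4 under upper quartile and 4 under median of ratios scaling (Cenpi, Cenpk, Knstrn and Kif20b each time), whether factors were estimated on the genes tested or on all listed genes. Over all genes, 1072 were called lower and 378 higher with library totals, 800 and 552 under TMM, 860 and 498 under upper quartile and 788 and 559 under median of ratios scaling. Centring on bins of length left 4 calls (Cenph, Cenpi, Cenpk and Knstrn; all genes 775 lower and 513 higher) and on bins of GC content 3 (Cenpi, Cenpk and Knstrn; 726 and 487), and a log2 cutoff of 0.58 gave 17 (2194 and 1002). Centring changed the log2 ratio only and kept the adjusted p of the uncentred reads. The counts by GC bins cover the 12552 tested genes with a GC value. The median of the 60 genes was -0.17 under TMM, -0.21 under upper quartile and -0.17 under median of ratios scaling, and -0.17, -0.19 and -0.18 with factors from all listed genes. It was -0.29 for FPKM + 1, -0.15 by length bins and -0.10 by GC bins. Under the same settings Ncaph turned from -0.053 to 0.076, 0.040 and 0.083, with factors from all listed genes to 0.083, 0.062 and 0.074, and to 0.076 by length bins and 0.073 by GC bins. In all, 6 of the 60 genes changed sign by length bins and 8 by GC bins, and 3, 2 and 3 under TMM, upper quartile and median of ratios scaling. The 7 calls in the other lists became 4 by GC bins (3 lower and 1 higher) and 27 at the cutoff of 0.58 (23 and 4), and length bins gave 4 lower and 1 higher. The spread between cultures could not be measured with these libraries. In edgeR's exact test an assumed coefficient of variation of 0.1 kept 7 calls (all genes 1127), but 11 in place of 36 genes past the adjusted p alone, all of them lower, against 7.26% of all genes lower and 2.83% higher. At 0.2 it gave 0 calls (all genes 120), 0 in the other lists and 0 past the adjusted p alone, and 11 of the 60 genes had an unadjusted p under 0.05. At 0.4 (all genes 6) these were again 0, 0 and 0, with 1 gene at an unadjusted p under 0.05. The cause of the other changes was not tested.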
